A study of Mus musculus with 4 samples.

Results

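Costimulatory and coinhibitory genes were examined in dendritic cells (DCs) with and without the microRNA miR-142. The 10 genes were chosen by name for this role, with earlier results of these data known, and not by a threshold on their values. They are the B7 family ligands Cd80, Cd86, Icosl, Cd274 and Pdcd1lg2, the TNF superfamily ligands Tnfsf4, Tnfsf9 and Cd70, and the DC surface genes Cd40 and Cd83. Each was read from its single-symbol probe set, the one with the highest mean where a gene had several, and all 10 were found among the 19938 genes so read. Bone marrow of C57BL/6 mice was grown for 8 days in 200 ng/ml Flt3 ligand, the cytokine that drives DC development, and all groups share this culture. The 4 groups were miR-142-/- (ko) CD8-equivalent DCs, miR-142+/+ (wt) CD8-equivalent DCs, ko CD4-equivalent DCs and wt CD4-equivalent DCs, each measured on 1 Affymetrix array. Both sorted subsets were B220-negative and CD11c-positive. CD8-equivalent DCs carried CD24 with no CD172 and low CD11b, whereas CD4-equivalent DCs carried CD172 and CD11b with low CD24. The labels do not give the number of mice or cultures behind an array, nor which bases of the locus were removed. These are cells made in culture, named for the splenic subsets they resemble.

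A DC that presents antigen also delivers signals that set what the T cell does with it. CD80 and CD86 bind CD28, which promotes T cell activation, and CTLA-4, which restrains it. ICOS ligand acts through ICOS, and the 2 coinhibitory members PD-L1 (Cd274) and PD-L2 (Pdcd1lg2) act through PD-1. The TNF superfamily ligands OX40 ligand (Tnfsf4), 4-1BB ligand (Tnfsf9) and CD70 bind OX40, 4-1BB and CD27 on T cells. CD40 works the other way: it is a receptor on the DC for the T cell's CD40 ligand. CD83 is a marker of mature DCs that holds CD86 and MHC class II at the cell surface by opposing their removal by the ubiquitin ligase MARCH1.

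The 2 mature strands of the deleted gene are shown because they define what the ko cells lack. They are the RefSeq sequences of GRCm38.p6, 5′ to 3′, with the seed (bases 2 to 8, which pair with target transcripts) in capitals, at chr11:87756867-87756887 and chr11:87756903-87756925 on the plus strand.
mmu-miR-142a-5p: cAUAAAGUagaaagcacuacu
mmu-miR-142a-3p: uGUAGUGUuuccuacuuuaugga
The Mir142 probe set read 4.79 in ko and 9.87 in wt CD8-equivalent DCs, and 4.92 in ko and 10.37 in wt CD4-equivalent DCs (log2). It follows the genotype labels, and whether it lies in the part removed is not given. All values here are RMA summaries on the log2 scale, where a difference of 1 is 2-fold. A value of 5.68, the median of all single-symbol probe sets, served as a floor for calling a gene measurable, and 9774 to 9821 genes reached it on an array.

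Of the 10 genes, 7 reached the floor on at least 1 array and 6 on every array. These 6 were Cd80, Cd86, Icosl, Cd40, Cd83 and Tnfsf9. Cd274 lay above the floor in CD4-equivalent DCs (6.27 in ko and 6.14 in wt) and below it in CD8-equivalent DCs (5.42 in ko and 5.29 in wt). Pdcd1lg2 (4.47 to 4.67), Tnfsf4 (4.42 to 4.70) and Cd70 (4.29 to 4.53) stayed below it on all 4 arrays. Their differences are therefore not read, which does not show that the genes are silent. In RefSeq order Cd274 and Pdcd1lg2 are neighbours, as are Tnfsf9 and Cd70, so in each pair a gene that reached the floor sat beside one that did not.

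**Figure D1:**
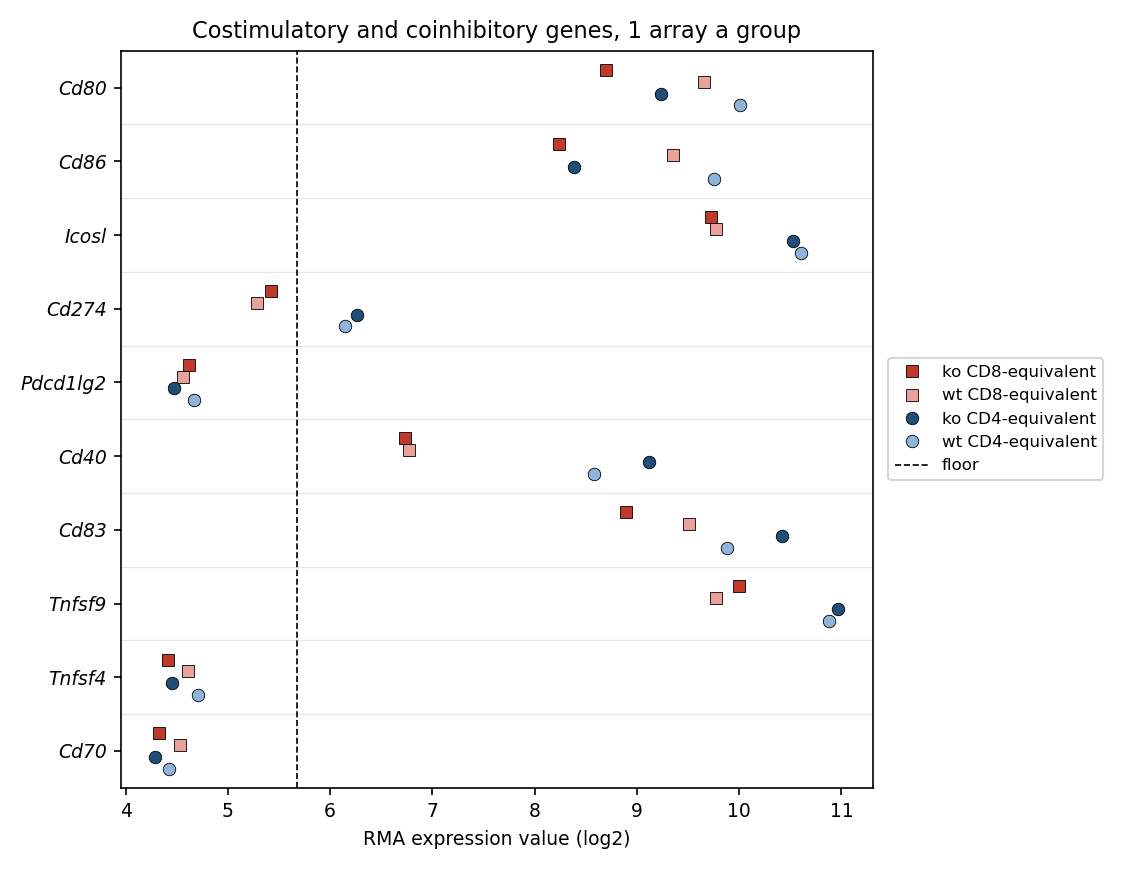
RMA expression values (x axis, log2) of the 10 genes on the 4 arrays, with 1 point per array, squares for CD8-equivalent and circles for CD4-equivalent DCs, and dark points for ko and light points for wt. The dashed line is the floor of 5.68. Cd80 and Cd86 separate by genotype, and Cd40, Tnfsf9, Icosl, Cd274 and Cd83 separate by subset. Pdcd1lg2, Tnfsf4 and Cd70 stay left of the line.

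The first question was how the genes differed between genotypes within each subset. The pair of ligands that share the receptors CD28 and CTLA-4 stood lower in ko cells of both subsets. Cd86 read 8.23 in ko and 9.36 in wt CD8-equivalent DCs, and 8.39 in ko and 9.75 in wt CD4-equivalent DCs. Both ko arrays lay below both wt arrays, with a gap of 0.97 between the highest ko and the lowest wt value. The differences, ko minus wt, were -1.12 (2.18-fold) in CD8-equivalent and -1.37 (2.58-fold) in CD4-equivalent DCs. Counted from the lowest difference, Cd86 had rank 77 of 9972 genes compared in CD8-equivalent and rank 43 of 9978 in CD4-equivalent DCs.

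Cd80 showed the same order of arrays with a smaller difference. It read 8.70 in ko and 9.65 in wt CD8-equivalent DCs, and 9.23 in ko and 10.00 in wt CD4-equivalent DCs. The ko and wt values did not overlap, and the gap was 0.42. The differences were -0.96 (1.94-fold) and -0.77 (1.71-fold), at ranks 118 and 184 from the lowest. Cd80 has a second probe set, which read lower overall and differed by -0.83 in CD8-equivalent and -0.84 in CD4-equivalent DCs, so the 2 probe sets gave the same direction and a similar size. In bulk RNA of sorted cells, fewer cells that carry a transcript and less transcript per cell cannot be told apart.

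Over both subsets, limma's additive model put the genotype difference of Cd86 at -1.24 ± 0.13 (SE, 4 arrays), with an adjusted p of 0.053, and that of Cd80 at -0.86 ± 0.12, with an adjusted p of 0.073. Neither passed the threshold of 0.05 after Benjamini-Hochberg adjustment over 10239 genes, although both were lower in ko in 2 of 2 subsets. Their unadjusted p-values were 2.0e-04 and 9.1e-04. Under a trended, robust prior both passed (adjusted p = 0.0084 and 0.017), and with a floor 1 log2 unit higher Cd86 alone passed (adjusted p = 0.035). Over the alternatives the adjusted p ran from 0.0084 to 0.87 for Cd86 and from 0.017 to 1.00 for Cd80, the highest values coming from a model without the subset term. The test uses each subset as the replicate of the other. Its 1 residual degree of freedom is the difference between the subsets in the genotype difference. The p-values rest on that difference and on a spread borrowed from all genes (3.98 prior degrees of freedom). They do not measure the spread between mice or cultures, and the scatter of these 4 arrays may be technical.

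The remaining 5 measurable genes did not share this pattern. Icosl read 9.73 in ko and 9.77 in wt CD8-equivalent DCs, and 10.53 in ko and 10.60 in wt CD4-equivalent DCs, so the genotypes lay within 0.08 of each other in both subsets. Tnfsf9 read 10.00 in ko and 9.77 in wt CD8-equivalent DCs, and 10.97 in ko and 10.87 in wt CD4-equivalent DCs. The limma estimate was -0.06 for Icosl (95% interval -0.36 to 0.24) and 0.16 for Tnfsf9 (-0.15 to 0.47), which leaves out a 2-fold difference in either direction under the model's assumptions. For Cd274 it was 0.13 (-0.17 to 0.42), from values close to the floor. Their adjusted p-values, by limma with Benjamini-Hochberg adjustment, were 0.85, 0.58 and 0.66.

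For Cd83 and Cd40 the difference between ko and wt was not alike on the arrays of the 2 subsets. Cd83 read 8.89 in ko and 9.51 in wt CD8-equivalent DCs, but 10.41 in ko and 9.88 in wt CD4-equivalent DCs. It was thus lower in ko by 0.61 in the first subset and higher by 0.54 in the second. Cd40 read 6.73 in ko and 6.77 in wt CD8-equivalent DCs, and 9.12 in ko and 8.58 in wt CD4-equivalent DCs, where it was higher in ko by 0.54. The difference of the 2 differences was -1.15 for Cd83 and -0.58 for Cd40. With 1 array a group it has no test. Of the 10239 genes, 2.24% had such a difference of at least 1 in size, which Cd83 reached and Cd40 did not, and 38.2% had opposite signs in the subsets. The share of genes with a difference of the size of Cd40's was not counted.

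Counted at 2-fold, 1 of 6 genes compared in CD8-equivalent DCs and 1 of 7 in CD4-equivalent DCs was lower in ko, Cd86 each time, and 0 were higher. In CD8-equivalent DCs 1.00% of all genes compared were lower by that much and 1.14% higher, and in CD4-equivalent DCs 0.952% and 1.39%. At 1.5-fold 3 of 6 were lower in ko CD8-equivalent DCs (Cd86, Cd80 and Cd83, against 3.48% of all genes) and 2 of 7 in ko CD4-equivalent DCs (Cd86 and Cd80, against 3.72%). The median of the genes compared was -0.33 in CD8-equivalent DCs, against 0.004 for all genes, and 0.10 in CD4-equivalent DCs, against -0.08. Cd80 and Cd86 were the 2 of 7 measurable genes whose ko arrays both lay below both wt arrays, and 18.1% of all genes tested did the same. Tnfsf4 and Cd70 had that order too, below the floor. By limma 0 of 7 were called for genotype and 2 had an unadjusted p under 0.05. Over all genes 0.166% were called and 15.6% had such a p.

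**Figure D2:**
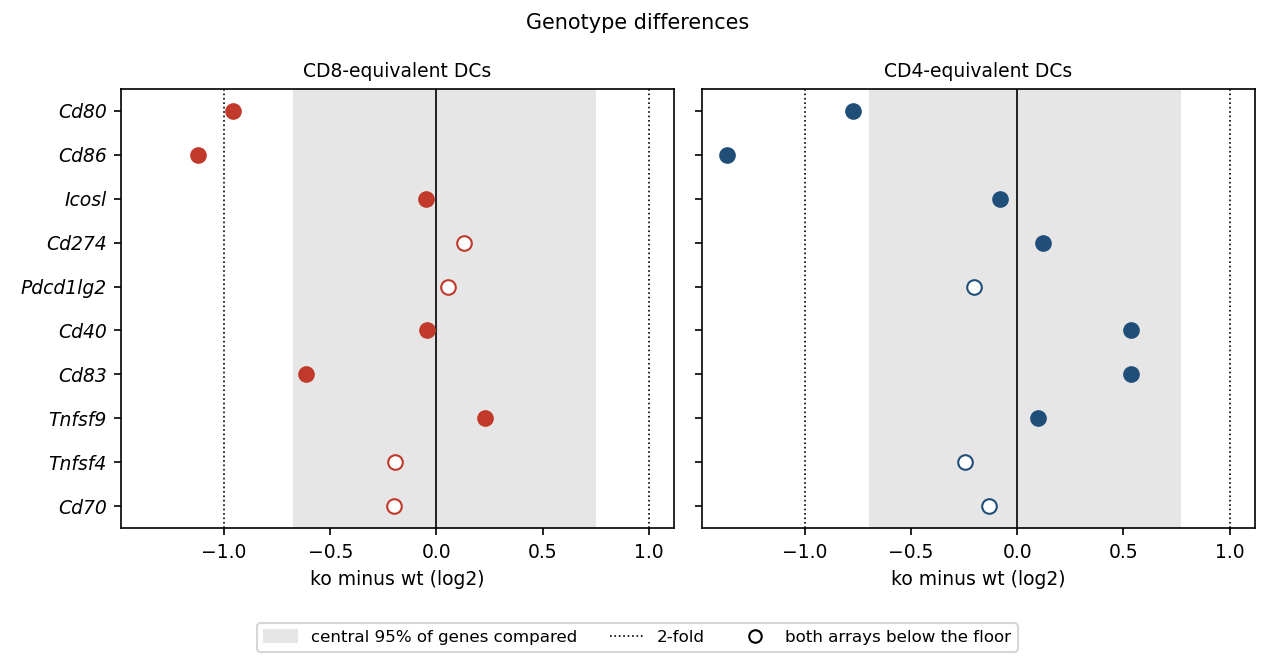
Differences ko minus wt (x axis, log2) of the 10 genes in CD8-equivalent (left) and CD4-equivalent DCs (right), with 1 point per gene from 2 single arrays. The grey band holds the central 95% of genes compared, dotted lines mark 2-fold and open points mark genes below the floor on both arrays. Cd86 (-1.12 and -1.37) lies past 2-fold in both panels, and Cd83 lies on opposite sides of 0.

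The ko and wt arrays also differed in transcripts of other cell types, and not alike in the 2 subsets. The mean log2 value of 15 neutrophil markers was 5.25 in ko and 5.10 in wt CD8-equivalent DCs, but 7.40 in ko and 5.73 in wt CD4-equivalent DCs, where 10 of 13 markers compared were higher in ko by 2-fold or more, and 3 of the 5 with both arrays at the floor. Neutrophil markers at the floor numbered 2 of 15 in ko and 1 in wt CD8-equivalent DCs, and 13 in ko and 5 in wt CD4-equivalent DCs. For 14 monocyte and macrophage markers it was 7.24 in ko and 8.17 in wt CD8-equivalent DCs, where 6 of 11 compared, and 2 of the 7 with both arrays at the floor, were lower in ko by 2-fold or more, and 9.58 and 9.45 in ko and wt CD4-equivalent DCs. For 10 plasmacytoid DC markers it was 10.04 and 9.95 in ko and wt CD8-equivalent DCs, and 9.34 and 8.49 in ko and wt CD4-equivalent DCs. For 15 markers of CD8-equivalent DCs themselves it was 9.87 in ko and 10.32 in wt CD8-equivalent DCs. In CD4-equivalent DCs it was 9.22 in ko and 8.57 in wt. There 5 of 13 compared, with Clec9a (3.07) and Cadm1 (2.67) highest, were higher in ko by 2-fold or more, against 1.39% of all genes compared. With both arrays at the floor it was 4 of 12. Of the 13 compared, 8 lay above 0 and 5 below it. The neutrophil excess was on the ko CD4-equivalent array and the lower macrophage mean on the ko CD8-equivalent array. The macrophage gene Adgre1 (F4/80) was lower in ko in both subsets (-3.00 in CD8-equivalent DCs, where ko was below the floor, and -1.55 in CD4-equivalent DCs). The part of these cells in the differences of single genes, Cd86, Cd80, Cd83 and Cd40 among them, was not tested.

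Few markers of B and T cells, which also use several of these genes, reached the floor. Of 9 B cell markers, 1 or 2 reached the floor on an array, Cd79b (9.60 to 9.90) being the one that did on all 4, while Cd79a, Ms4a1 and Pax5 stayed below it. Of 10 T and NK cell markers, 0 reached it on any array, and Cd3e read 4.68 to 4.87.

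**Figure D3:**
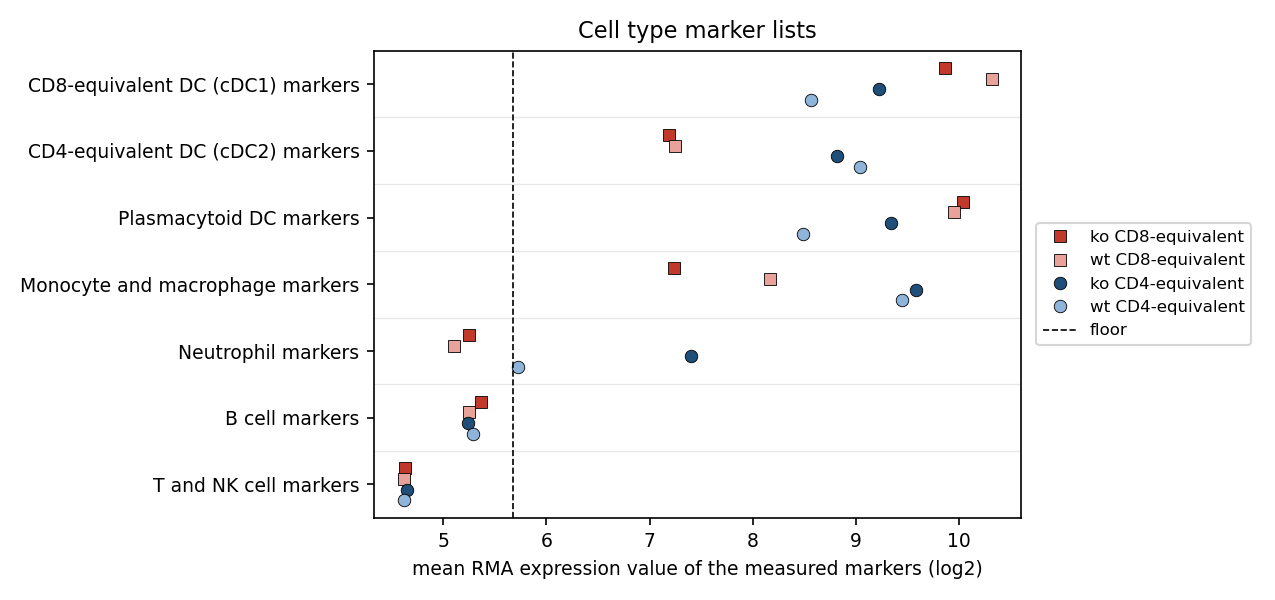
Mean RMA value (x axis, log2) of the measured genes of 7 marker lists on each of the 4 arrays, drawn as in the plot of the 10 genes. The ko CD4-equivalent array has the highest neutrophil mean (7.40), the ko CD8-equivalent array the lowest macrophage mean (7.24), and T and NK cell markers stay below the floor of 5.68 on every array.

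The second question was how the subsets differed. In both genotypes CD8-equivalent DCs had the lower value of all 6 genes that reached the floor on every array, and 3 of these 6 (Cd40, Tnfsf9 and Icosl) fell in limma's subset test. Cd274 was also called, which makes 4 of 7 tested, but in CD8-equivalent DCs it did not reach the floor, and so it entered the test only through CD4-equivalent DCs, which fixed its direction. Of the 7, 6 had an unadjusted p under 0.05 (33.3% of all genes). The subset test uses each genotype as the replicate of the other, with 1 residual degree of freedom. Its p-values do not measure the spread between mice or cultures. The 4 called genes each had both CD8-equivalent arrays below both CD4-equivalent arrays, as did Cd83 and 21.3% of all genes tested. Of all 10239 genes tested 6.35% were called lower in CD8-equivalent DCs, 7.98% higher and 14.3% in either direction, and 5.87% were called lower among the 9711 that did not enter through 1 subset alone.

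Cd40 had the widest difference of the 10. CD8-equivalent DCs read 6.73 in ko and 6.77 in wt, against 9.12 in ko and 8.58 in wt CD4-equivalent DCs. The difference was -2.39 (5.25-fold) in ko and -1.81 (3.51-fold) in wt, and the gap between the subsets was 1.81. The limma estimate was -2.10 ± 0.17 (SE, 4 arrays), with a Benjamini-Hochberg adjusted p of 0.0069. Cd40 was the one of the 4 whose call also held in a model without the genotype term (adjusted p = 0.042).

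Tnfsf9, the 4-1BB ligand gene, read 10.00 in ko and 9.77 in wt CD8-equivalent DCs, against 10.97 in ko and 10.87 in wt CD4-equivalent DCs. It was lower in CD8-equivalent DCs by 0.97 in ko and 1.10 in wt, and limma gave -1.04 ± 0.12 (adjusted p = 0.013). Icosl fell by 0.80 in ko and 0.83 in wt, and limma gave -0.81 ± 0.12 (adjusted p = 0.019). Cd274 fell by 0.85 in ko and 0.86 in wt, and limma gave -0.85 ± 0.12 (adjusted p = 0.017). Without the genotype term the adjusted p of these 3 was 0.060 to 0.064.

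The other 3 measurable genes were not called. Cd83 differed by -1.52 in ko and -0.37 in wt (-0.95 ± 0.28, adjusted p = 0.087), the same untested difference of differences as above seen from the other side. Cd80 differed by -0.54 in ko and -0.35 in wt (-0.44 ± 0.12, adjusted p = 0.074), and passed with the trended and robust prior (adjusted p = 0.040). Cd86 differed by -0.15 in ko and -0.39 in wt (-0.27 ± 0.13, adjusted p = 0.21). Thus the genes with the clearest genotype difference, Cd86 and Cd80, had the smallest subset differences by limma's estimate, and the 4 called between subsets differed between genotypes by at most 0.54.

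At 2-fold, 2 of 7 genes compared were lower in CD8-equivalent DCs of ko (Cd40 and Cd83) and 2 of 7 in wt (Cd40 and Tnfsf9), where 3.90% of all genes compared in ko and 3.14% in wt were. None was higher, against 3.39% of genes in ko and 2.10% in wt. At 1.5-fold 5 of 7 were lower in ko and 4 in wt, Cd274 among them in both, against 8.05% and 7.33% of genes. Tnfsf9 in ko (-0.97) lay just inside 2-fold and Tnfsf9 in wt (-1.10) just past it. Without Cd274, the median of the 6 with both arrays at the floor was -0.89 in ko and -0.61 in wt, against 0.12 and 0.04 over all such genes. All 6 lay below 0 in each genotype, as did 36.4% of such genes in ko and 45.0% in wt. Over all genes compared, 37.2% lay below 0 in ko and 45.2% in wt.

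**Figure D4:**
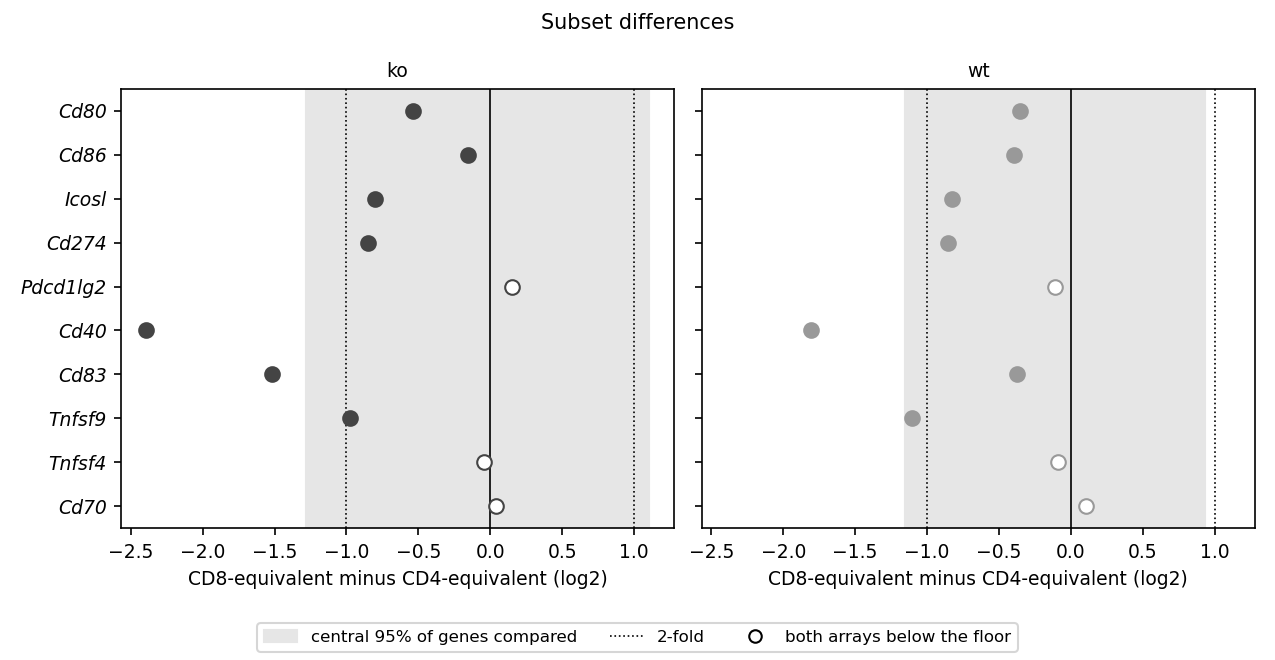
Differences CD8-equivalent minus CD4-equivalent (x axis, log2) of the 10 genes in ko (left) and wt (right), drawn as in the plot of genotype differences. All 7 filled points lie left of 0 in both panels, Cd274 among them with its CD8-equivalent arrays below the floor, with Cd40 farthest (-2.39 and -1.81).

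Subset marker lists were set against the sort labels. Of 15 CD8-equivalent (cDC1) markers 7 were called higher and 0 lower in CD8-equivalent DCs, among them the chemokine receptor Xcr1 and the RNA sensor Tlr3. Gcsam, 1 of the 7, did not reach the floor in CD4-equivalent DCs, which fixed its direction. Among the 13 cDC1 markers that did not enter through 1 subset alone, 6 were called higher and 0 lower. Of 12 CD4-equivalent (cDC2) markers tested 0 were called higher and 10 lower, among them Sirpa, which encodes CD172a. The other 8 of the 15 cDC1 markers were not called. Among these, in ko the adhesion gene Cadm1 read 8.18 in CD8-equivalent against 9.89 in CD4-equivalent DCs (-1.71, and 0.14 in wt). The dead cell receptor Clec9a differed by 0.30 in ko and 3.11 in wt, and Cd36 by -0.52 in ko and -0.04 in wt. Monocyte and macrophage markers moved in the direction of the members, with 7 of 12 called lower in CD8-equivalent DCs (Mrc1 of them below the floor there), and plasmacytoid markers in the other, with 6 of 10 called higher and 1 lower. The members' subset differences were therefore measured between sorted populations that also differed in these transcripts, and the part of each cell type was not tested. Sirpa, Itgam and Cd24a encode proteins of the sort gate, so their calls check the sort and are no finding.

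Of genes of the DC maturation programme outside the 10, 14 were tested between subsets. Of these, 5 (Fscn1, Ccl22, Il15, Socs2 and Il12b) did not reach the floor in CD8-equivalent DCs and entered only through CD4-equivalent DCs, which fixed their direction. Of the other 9, 6 fell and 0 rose in CD8-equivalent DCs by limma, and 3 of the 6 (Relb, Birc3 and Traf1) are also NF-kB genes. The 3 not called were Ccr7, Marcksl1 and the adhesion gene Icam1, which read higher in CD8-equivalent DCs by 0.09 in ko and 0.40 in wt. Among the 5, the actin bundler Fscn1 read 5.19 in ko and 5.00 in wt CD8-equivalent DCs, against 8.66 in ko and 8.34 in wt CD4-equivalent DCs. The chemokine Ccl22 read 4.67 and 5.15 in ko and wt CD8-equivalent DCs, against 7.92 and 8.17 in ko and wt CD4-equivalent DCs. Ccl5, another chemokine, differed by -4.13 in ko and -3.13 in wt. For genotype 0 of the 14 were called, and the median difference of those compared was -0.25 in CD8-equivalent and -0.14 in CD4-equivalent DCs, with the IL-12 subunit Il12b (1.13, CD4-equivalent, with wt below the floor) the one at least 2-fold apart. Ccr7, the receptor that guides maturing DCs to lymph nodes, was higher in ko by 0.80 in CD8-equivalent and 0.41 in CD4-equivalent DCs and was not called (adjusted p = 0.17).

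CD40 and NF-kB signalling genes, through which CD40 and TNF receptors induce several of these ligands, had 16 of 19 listed genes measured. In the subset test 5 of the 16 fell in CD8-equivalent DCs and 0 rose. They were the adaptor Traf1, the non-canonical subunits Relb and Nfkb2, the inhibitor Nfkbie and the apoptosis inhibitor Birc3. Relb read 5.95 in ko and 6.10 in wt CD8-equivalent DCs, against 7.12 in ko and 7.25 in wt CD4-equivalent DCs (-1.16 ± 0.12, adjusted p = 0.0098). For genotype 0 of 16 were called, and all 16 differed by less than 2-fold in both subsets.

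The promoters of 4 of the 10 genes (Icosl, Cd80, Cd274 and Pdcd1lg2) were in the RefSeq table, 250 bases before to 50 after a start site. They were searched on both strands for the kappaB consensus bound by NF-kB, the interferon element (GAAA, any 2 bases, GAAA) and the STAT element TTCNNNGAA, and no matches overlapped. The kappaB consensus was found once in Icosl and once in Pdcd1lg2, and occurs in 8.46% of 32851 promoters. None of the 4 windows held the interferon element (3.44% of promoters) or the STAT element (8.30%). The Icosl window is shown as one with a kappaB match, in capitals, and the Cd80 window as one with no match and so no capitals. Cd274, which like Icosl was called between subsets, had no kappaB match, and Pdcd1lg2, which had one, lay below the floor on all 4 arrays. The part of NF-kB in the subset differences was not tested. Both are GRCm38.p6, plus strand, at chr10:78069118-78069417 for Icosl and chr16:38458683-38458982 for Cd80. For Cd80 and also for Cd274 the listed start site lies inside the gene.
Icosl: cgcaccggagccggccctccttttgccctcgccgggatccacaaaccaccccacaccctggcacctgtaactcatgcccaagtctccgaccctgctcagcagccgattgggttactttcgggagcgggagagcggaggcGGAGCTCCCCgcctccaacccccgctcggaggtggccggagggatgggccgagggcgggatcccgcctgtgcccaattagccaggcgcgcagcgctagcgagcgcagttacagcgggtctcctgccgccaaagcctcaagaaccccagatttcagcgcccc
Cd80: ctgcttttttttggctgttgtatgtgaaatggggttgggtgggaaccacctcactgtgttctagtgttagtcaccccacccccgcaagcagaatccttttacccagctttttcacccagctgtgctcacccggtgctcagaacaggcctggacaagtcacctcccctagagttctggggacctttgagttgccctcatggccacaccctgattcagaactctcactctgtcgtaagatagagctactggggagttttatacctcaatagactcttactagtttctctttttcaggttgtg
A match describes the letters in this window and is not a measured binding site.

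Of the receptors on T cells for these ligands, 3 of 8 were measurable in the sorted DCs. Cd28, which encodes the receptor of CD80 and CD86, read 10.54 in ko and 9.24 in wt CD8-equivalent DCs, and 9.62 in ko and 7.61 in wt CD4-equivalent DCs. The ko values thus lay above the wt values of the same subset, by 1.30 (2.47-fold) and 2.01 (4.04-fold). The limma genotype estimate was 1.66 ± 0.20 (SE), adjusted p = 0.061, so it was not called either. Cd27, the receptor of CD70, read 8.54 in ko and 7.01 in wt CD8-equivalent DCs, and 5.97 in ko and 5.39 in wt CD4-equivalent DCs. Both receptors rose in CD8-equivalent against CD4-equivalent DCs in limma's subset test (adjusted p = 0.022 for Cd28 and 0.013 for Cd27). The third, Tnfrsf4, which encodes OX40, read 5.80 to 6.01 on the 4 arrays, and Ctla4, Icos, Pdcd1, Tnfrsf9 and Cd40lg stayed below the floor. The T and NK cell markers, 0 of 10 at the floor, were measured on the same arrays, and which cells held these receptor transcripts was not tested.

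Among TNF superfamily ligands outside the 10, 13 of 15 were measured and 6 tested. In CD8-equivalent DCs 0 of 6 compared were 2-fold apart, and in CD4-equivalent DCs 3 of 5 were lower in ko by 2-fold or more and 0 higher. With both arrays at the floor it was 2 of 4. Tnfsf14, the LIGHT gene and the next protein-coding gene after Cd70, read 5.12 in ko and 5.87 in wt CD8-equivalent DCs (ko below the floor), and 5.70 in ko and 7.62 in wt CD4-equivalent DCs (-1.92). Tnfsf8, the CD30 ligand gene, read 6.29 in ko and 7.01 in wt CD8-equivalent DCs (-0.72), and 6.99 in ko and 8.45 in wt CD4-equivalent DCs (-1.45). Ltb, a lymphotoxin subunit gene, read 5.22 in ko and 5.80 in wt CD8-equivalent DCs, and 5.60 in ko and 6.79 in wt CD4-equivalent DCs, so both ko values were below the floor and give no exact size. None of the 3 was called for genotype (adjusted p = 0.14, 0.11 and 0.13), while Tnf and Tnfsf8 fell in CD8-equivalent DCs in the subset test (adjusted p = 0.026 and 0.033).

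Of the B7 and CD28 family relatives, 2 of 7 measured genes were tested. Vsir, which encodes the coinhibitory receptor and ligand VISTA, read 9.65 in ko and 10.02 in wt CD8-equivalent DCs, against 11.20 in ko and 11.37 in wt CD4-equivalent DCs, and fell in the subset test (-1.46 ± 0.12, adjusted p = 0.0073). Cd276, the B7-H3 gene, stayed between 5.54 and 5.93. Of 15 other surface partners of T cells tested, 0 were called for genotype, with the SLAM family gene Cd84 (-1.35 in CD8-equivalent, -0.73 in CD4-equivalent) the one at least 2-fold apart in a subset. Havcr2, which encodes TIM-3, and Cd5 rose in CD8-equivalent DCs (adjusted p = 0.0082 and 0.024) and were the 2 called of the 15.

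Genes that set how long CD86 and PD-L1 stay at the surface came next. Of 5 measured, 0 were called for genotype or subset. Marchf1, the ligase that removes CD86, read 9.78 in ko and 10.06 in wt CD8-equivalent DCs, and 10.06 in ko and 10.22 in wt CD4-equivalent DCs. Cmtm4, which protects PD-L1 from degradation, was higher in ko by 0.94 in CD8-equivalent and 0.73 in CD4-equivalent DCs and was not called (adjusted p = 0.079). Of 17 interferon and STAT regulators tested, 0 were called for genotype. In each subset 13 of the 17 compared lay below 0 in ko minus wt, as did 49.3% of all genes in CD8-equivalent and 63.8% in CD4-equivalent DCs, with medians of -0.24 in CD8-equivalent and -0.19 in CD4-equivalent DCs, and 4 fell in CD8-equivalent DCs in the subset test (Irf4, Irf7, Ciita and Socs3). Irf8, a factor needed for CD8-equivalent DC development, was the one at least 2-fold apart between genotypes, 12.42 in ko and 11.13 in wt CD4-equivalent DCs.

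**Figure D5:**
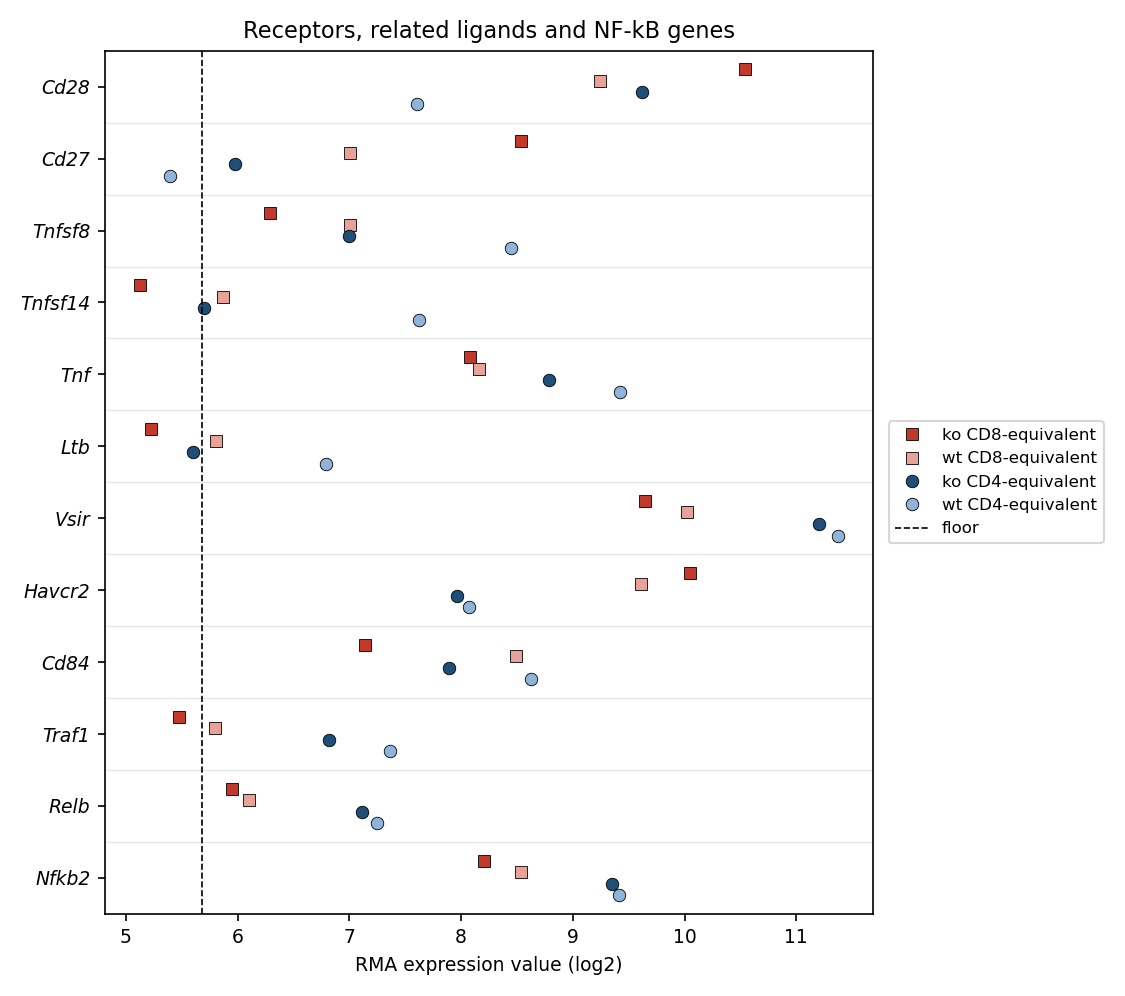
RMA values (x axis, log2) of 12 receptor, ligand and NF-kB genes on the 4 arrays, drawn as in the plot of the 10 genes. Cd28 is higher in ko than in wt of the same subset, Tnfsf8, Tnfsf14 and Ltb are lower, and Traf1, Relb and Nfkb2 are lower in both CD8-equivalent arrays.

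Other genes followed the 4 arrays in nearly the same way as single members. For the 5 genes with a range of at least 1 log2 unit over the arrays, each of 10238 genes was compared after centring its 4 values, by the root mean square distance in log2 units. Nearest to Cd86 was Ptpn22, a phosphatase of antigen receptor signalling, at 0.050, with 8.10 in ko and 9.35 in wt CD8-equivalent DCs, and 8.27 in ko and 9.70 in wt CD4-equivalent DCs. Akr1e1 (0.10) and Pde8a (0.13) came next. Nearest to Cd80 were Ifi209 (0.049), Abcc4 (0.055) and Gpr34 (0.069). Nearest to Cd40 were Siglece (0.078), Fosl2 (0.097) and Nectin1 (0.13), to Cd83 Smpdl3b (0.067), Actn1 (0.072) and Anxa4 (0.13), and to Tnfsf9 Lgals8 (0.054), Hpgd (0.062) and Arhgap23 (0.063). With 4 points such likeness is a description of these arrays.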

How the data were processed

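The authors deposited a log2 value for each of 35399 probe sets on each of 4 arrays. RMA and Partek are named in the submitters' processing notes, with versions and later steps not given in the sources used here. The log base was inferred from the values (3.52 to 14.3), and scanner values were not used here, so scale and centring stay unchecked. RMA compresses differences near background. Probe sets were named from the platform annotation of 2016: 21789 had 1 symbol, 1621 several and 11989 were unnamed here. The highest-mean probe set stood for each of 19938 genes. Arrays had medians of 5.87 to 5.94.

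Differences of 2 arrays were taken without a test for genes whose higher value reached the floor of 5.68, and counted at 2-fold. Genotype and subset effects were fitted with limma 3.58.1 in R 4.3.3 (lmFit, eBayes, additive model, two-sided, Benjamini-Hochberg over 10239 genes reaching the floor on any array, threshold 0.05), with 1 residual and 3.98 prior degrees of freedom, and tested on simulated data. The number of arrays limits precision. The 10 genes and the gene lists were chosen with earlier results of these data known. All 10 are named. Of each list the text names genes at least 2-fold apart, at most 4 per list and comparison, and genes called by limma or cited for their role, chosen after their values were seen. Alternatives were other floors, cyclic loess, averaged probe sets, a 1.5-fold threshold, a trended and robust prior and a model without the other factor.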

Additional observations from a re-analysis of the deposited data

Results flagged for a closer look

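For 2 of the 7 genes that reached the floor on some array the genotype difference had opposite signs in the subsets, a difference that was not tested because each group holds 1 array. Cd83 differed, ko minus wt, by -0.61 in CD8-equivalent and 0.54 in CD4-equivalent DCs, a difference of -1.15 between the subsets. Cd40 differed by -0.045 in CD8-equivalent and 0.54 in CD4-equivalent DCs, a difference of -0.58. Opposite signs occurred in 38.2% of the 10239 genes that reached the floor, a share that the 2 of 7 do not exceed, and the value of Cd40 in CD8-equivalent DCs was close to 0.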

How the results depend on the processing

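Of 228 recomputed values of single genes, 107 were identical by construction, since a floor, a threshold or an average of probe sets leaves most 2-array differences as they are. Of the 121 whose value or adjusted p differed, 112 counted as unchanged, 46 of 48 under cyclic loess. Unchanged means on the same side of the threshold, with a change of sign counted only for limma estimates and for differences of at least 2-fold. Smaller differences could thus change sign and still count as unchanged. Under cyclic loess the difference of the 2 genotype differences turned from 0.0081 to -0.048 for Cd274 and from 0.030 to -0.039 for Icosl. The mean genotype difference of Cd83, which is close to 0, turned to 0.0028 after cyclic loess. At a 1.5-fold threshold the count of lower genes became 3 in CD8-equivalent and 2 in CD4-equivalent DCs for ko minus wt (1 each at 2-fold), and 5 in ko and 4 in wt for CD8-equivalent minus CD4-equivalent DCs (2 each). After cyclic loess the 2-fold count for CD8-equivalent minus CD4-equivalent in ko was 3, since Tnfsf9 moved to -1.06 from -0.97. By limma's genotype test 1 of the 10 was called with the floor 1 log2 unit higher and 2 with the trended and robust prior, against 0, and over all genes 120 genes and 307 genes were called, 3 without a floor and 0 without the subset term (354 at an unadjusted p under 0.05), against 17. In the subset test 1 of the 10 was called without the genotype term, against 4, and over all genes 99 were called, and 946 without a floor, against 1467. These settings change the prior, the residual spread or the number of genes adjusted over. After cyclic loess the median of all genes for CD8-equivalent minus CD4-equivalent in ko was 0.012, against 0.11 as deposited, and 34.6% of 2-fold genes were higher, against 46.5%. No paired analysis was possible because the labels carry no replicate numbers and each group holds 1 array. Leaving out an array leaves limma's model no residual degree of freedom. Signal near the floor limits what can be said of Cd274, Pdcd1lg2, Tnfsf4 and Cd70.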
